A study of Mus musculus with 81 samples.

Results

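Histone H3.3 is the replacement form of histone H3. The comparison described here is that of bone marrow derived macrophages (BMDMs) of cKO mice with BMDMs of WT mice. In cKO mice the H3.3 genes were targeted for deletion in myeloid cells. The 6 libraries were chosen by their library names, WT1 to WT3 and KO1 to KO3 without a suffix, out of 81 libraries in the series, and are called BMDM set 1. WT mice were H3f3a fl/fl H3f3b fl/fl and carried no cre, and cKO mice had the same floxed alleles with LysM cre/cre. Bone marrow of young adult mice was grown in medium with macrophage colony-stimulating factor. The labels call the libraries of a group biological replicates, 3 WT and 3 cKO, and give no age, sex, treatment or culture day for them. The cre is expressed from the Lyz2 locus, which is active in myeloid cells. Both copies of Lyz2 carry it in cKO and neither in WT. The targeting of the H3.3 genes, the presence of cre and the loss of Lyz2 therefore cannot be told apart here. RNA was depleted of rRNA, and the values are counts of read pairs per gene, scaled to the library's effective size and given as CPM. The fit also held further WT and cKO BMDM groups, sets 2 and 3, and cKO groups with a knockout of Sting, Mavs or Irf7 (double KO).

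H3.3 is encoded by H3f3a and H3f3b, which make the same protein. Unlike the replication-coupled H3 proteins, which are made in S phase, it is made throughout the cell cycle and is placed into chromatin by its own chaperones, the HIRA complex at active genes and DAXX with ATRX at heterochromatin and telomeres. Macrophages that sense nucleic acid make type I interferon, which signals through IFNAR1 and IFNAR2 to transcription factors of the STAT and IRF families and turns on interferon-stimulated genes (ISGs), whose products block the steps of viral growth, and IRF7, itself an ISG, drives further interferon transcription.

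The targeted genes were read first, since they check the labels. H3f3a (mm10, chr1:180800832-180813943) had 71.03, 72.04 and 86.2 CPM in WT and 11.7, 10.4 and 9.32 CPM in cKO, with no overlap between the groups (log2FC -2.86 ± 0.14, adjusted p = 1.12e-12). Here and below log2FC is the log2 fold change of cKO over WT, ± its SE from the fit to 3 libraries a group, with the adjusted p of edgeR's quasi-likelihood fit. Its cKO level was 13.7% of the WT level. H3f3b (chr11:116021912-116027962) had 285, 200.4 and 255 CPM in WT and 220.3, 195 and 193 CPM in cKO, and the groups overlapped (log2FC -0.28 ± 0.16, adjusted p = 0.192). The transcript of the second H3.3 gene was therefore not called lower in the libraries labelled cKO, and its counts cannot show how many cells had lost it. Summed over both H3.3 genes, the level was 356, 272 and 341 CPM in WT and 232, 205 and 202 CPM in cKO. Much H3.3 transcript thus remained in the cKO libraries. The paper describes deletion of H3f3b as variable, complete in some cKO samples and partial in others. Which holds for these cKO libraries was not tested. Lyz2, the lysozyme gene that holds the cre, had 12119, 9622 and 12086 CPM in WT and 12.98, 17.9 and 16.7 CPM in cKO (log2FC -9.47 ± 0.33, adjusted p = 1.17e-15). Counts of histone genes are less certain than those of most genes, because H3.3 has many near-identical processed copies in the genome.

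**Figure D1:**
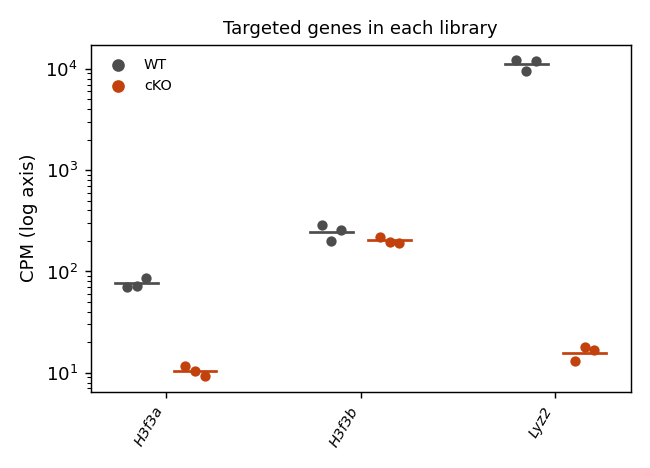
Level of H3f3a, H3f3b and Lyz2 in CPM (log axis) in the 3 WT and the 3 cKO libraries. Each point is a library and each bar the group mean; H3f3a and Lyz2 separated the groups, whereas H3f3b lay at 200.4–285 CPM in WT and 193–220.3 CPM in cKO.

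The 6 libraries held 21504555 to 31193738 counts on genes. On the first principal component, which held 56.6% of the variance, all WT libraries lay on one side and all cKO libraries on the other, and the second component (15.2%) spread the WT libraries apart. The median SD of log2 CPM over 8995 expressed genes was 0.177 among WT and 0.0856 among cKO libraries. WT replicate 3 stood apart in its multimapping reads, 17.5% against 8.84% to 10.8% in the other libraries. A further pair of groups with the same genotypes, BMDM set 2, serves below as a comparison: its libraries had Xist at 1059 to 1151 CPM and Ddx3y at up to 0.0893 CPM, whereas those of set 1 had Xist at up to 0.0465 CPM and Ddx3y at 41.3 to 85.1 CPM, so that set 1 and set 2 differed in sex and in whatever else separated the experiments. For BMDM set 3, the third pair, each library of set 1 was compared with the 3 libraries of its own genotype. The nearest of these had the same number in 6 of 6 cases (2 of 6 for set 2). Genotype was fixed in this search, so only the number could vary. No gene differed in its response between sets 1 and 3 in the edgeR test (279 genes, 1.54%, at an unadjusted p under 0.05), and 1 gene did in DESeq2. The sources used here do not say whether sets 1 and 3 came from separate cultures, and set 3 is given no weight as a repeat. Its libraries still entered the fit and its estimate of the spread.

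Of 18083 genes tested, 6275 differed between cKO and WT (34.7%). Of these 3249 were higher in cKO (18%) and 3026 lower (16.7%). Counts of list members below stand beside these shares, and a count near them is no result about the list. Most changes were small: 71.7% of the genes called changed by less than 1 on the log2 scale, and 975 genes rose (5.39% of genes tested) and 799 fell (4.42%) by at least that much. Genes with an adjusted p under 0.05 are those called, and only for them is a rise or fall stated. The median log2FC over all genes tested was -0.03. When only these 6 libraries were fitted, 4296 genes were called, 2465 higher and 1831 lower. In 21.3% of genes tested all 3 cKO libraries lay above all 3 WT libraries, and in 20.1% below them. A change of a transcript in such bulk RNA can come from fewer cells of a type or from less RNA per cell, and these cannot be told apart.

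**Figure D2:**
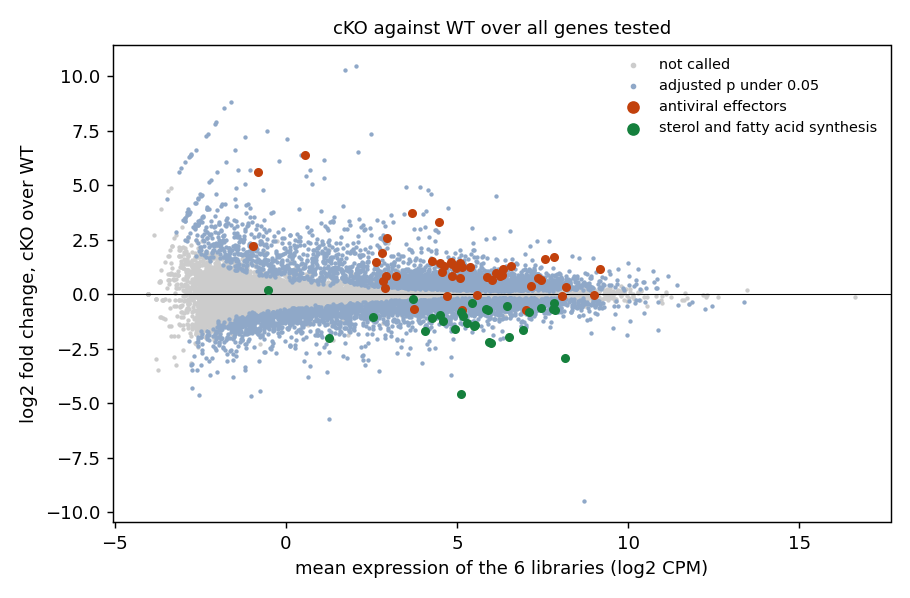
Log2FC of cKO over WT against the mean log2 CPM of the 6 libraries for the 18083 genes tested, with called genes in blue. Of the antiviral effectors (orange) 36 of 45 were called higher, and of the sterol and fatty acid synthesis genes (green) 27 of 29 were called lower.

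The 12 genes with the largest rise, among genes of moderate or high expression whose groups did not overlap, were Slfn4, Plac8, H2-Q6, Ly6c2, Ly6a, Plbd1, H2-Q7, Ifi44, Ifi213, Ifi206, Slfn1 and Oasl1. Slfn4, an interferon-induced Schlafen gene of myeloid cells (chr11:83175186-83190216), had 3.08, 2.35 and 2.76 CPM in WT and 103, 66.6 and 78.9 CPM in cKO (log2FC 4.93 ± 0.33, adjusted p = 2.23e-10). Plac8, abundant in monocytes (chr5:100553725-100572245), had 2.38, 1.34 and 2.56 CPM in WT and 69.96, 61.2 and 54.9 CPM in cKO (log2FC 4.93 ± 0.41, adjusted p = 4.85e-09). Ly6a, which encodes the surface antigen Sca-1 (chr15:74994877-74998031), had 24.1, 5.25 and 19.02 CPM in WT and 389, 332 and 376 CPM in cKO (log2FC 4.52 ± 0.38, adjusted p = 4.20e-09). In these 3 genes every cKO library was far above every WT library. Ly6c2, a surface antigen of inflammatory monocytes, had 4.98, 3.31 and 3.25 CPM in WT and 102, 104 and 72.6 CPM in cKO (log2FC 4.596 ± 0.39, adjusted p = 4.88e-09). Plbd1 had 13.96, 6.07 and 2.66 CPM in WT and 136, 96.5 and 119 CPM in cKO (log2FC 3.95 ± 0.64, adjusted p = 3.82e-05), with the WT libraries further apart than the cKO libraries. The other members were ISGs or class I genes and are described with their families. Slfn4 and Slfn1, H2-Q6 and H2-Q7, and Ifi206 and Ifi213 each have close relatives nearby, among which uniquely placed reads may be divided unevenly.

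The 12 genes with the largest fall were Lyz2, Scd1, Cbr2, Hpgd, Scd2, H3f3a, Gpr34, Gt(ROSA)26Sor, Nxpe5, Plxdc2, Ypel2 and Gm42031. Scd1, a stearoyl-CoA desaturase that makes monounsaturated fatty acids (chr19:44394455-44407879), had 114, 227 and 171 CPM in WT and 7.93, 7.05 and 6.58 CPM in cKO (log2FC -4.57 ± 0.56, adjusted p = 1.08e-06). Cbr2, a carbonyl reductase (chr11:120729489-120732114), had 103, 67.1 and 145 CPM in WT and 7.24, 7.74 and 9.39 CPM in cKO (log2FC -3.69 ± 0.30, adjusted p = 3.02e-09). Hpgd, which inactivates prostaglandins (chr8:56294585-56321043), had 77.5, 26.02 and 45.8 CPM in WT and 6.32, 6.43 and 3.87 CPM in cKO (log2FC -3.16 ± 0.41, adjusted p = 2.00e-06). In all 3 the cKO libraries were far below WT, and for Hpgd WT replicate 1 was the highest and WT replicate 2 the lowest WT library. Gpr34, a receptor for lysophosphatidylserine, had 50.6, 18.2 and 27.99 CPM in WT and 5.24, 5.78 and 3.50 CPM in cKO (log2FC -2.73 ± 0.39, adjusted p = 7.40e-06), and Ypel2 had 34.6, 26.8 and 26.2 CPM in WT and 5.73, 5.72 and 4.40 CPM in cKO (log2FC -2.47 ± 0.21, adjusted p = 5.06e-09). The non-coding Gt(ROSA)26Sor had 40.8, 17.3 and 19.4 CPM in WT and 3.67, 5.39 and 2.65 CPM in cKO (log2FC -2.72 ± 0.64, adjusted p = 0.00171). Gt(ROSA)26Sor overlaps Thumpd3 on the opposite strand over 846 bases and Gpr34 lies within Cask on the other strand, and without strand information reads of such partners cannot be separated. For Nxpe5, Plxdc2 and Gm42031 the log2FC values were -2.52, -2.47 and -2.44.

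**Figure D3:**
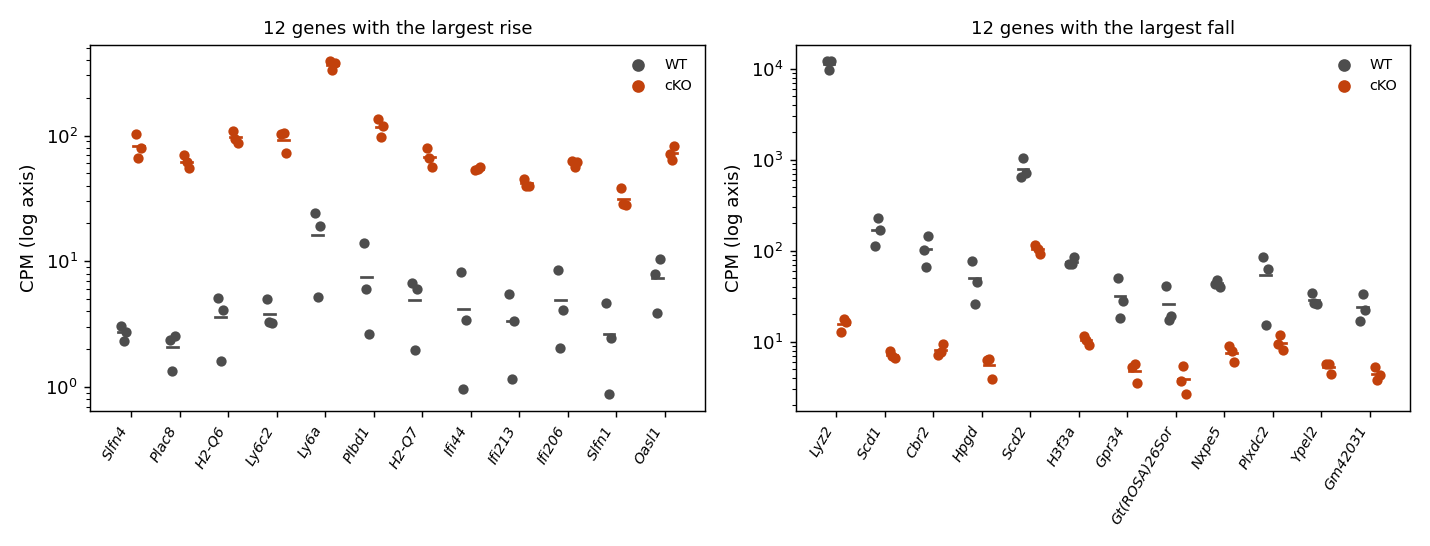
Level in CPM (log axis) in the 3 WT (grey) and 3 cKO (orange) libraries of the 12 genes with the largest rise (left) and the 12 with the largest fall (right), chosen by size. Points are libraries and bars group means; by the choice of these genes the groups do not overlap, and the WT libraries of Ifi44 (0.969–8.23 CPM) spread more widely than its cKO libraries (52.9–56.1 CPM).

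Interferon itself was hardly detected. Of 21 interferon genes listed (type I, II and III), 1 had enough counts to be tested, Ifnk, at 0.0985–0.469 CPM in WT and 0.131–0.196 CPM in cKO (log2FC -0.83 ± 0.62, adjusted p = 0.317). Ifnk overlaps Mob3b on the opposite strand over 1950 bases, so without strand information its counts are uncertain. Ifnb1 had 0 counts in each WT library and 3, 1 and 0 counts in the cKO libraries. Besides these, Ifna7 and Ifna13 had 1 and 6 counts over all 6 libraries, and the other 17 genes had none. A count of 0 allowed a level of up to 0.0962 to 0.140 CPM (3 counts), by counting error only.

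Of the receptors, Ifnar1, which with Ifnar2 forms the type I interferon receptor, was slightly lower in cKO, with 220.3, 215 and 215 CPM in WT and 182, 175 and 173 CPM in cKO (log2FC -0.29 ± 0.06, adjusted p = 3.31e-04), and Ifnar2 had 106, 84.2 and 109.8 CPM in WT and 97.1, 93.6 and 103 CPM in cKO (log2FC -0.03 ± 0.09, adjusted p = 0.833). Ifnar2 overlaps Gm21970 on the same strand over 13869 bases, so its count is less certain. Ifngr1, a chain of the interferon-γ receptor, fell from 170.3–239.6 CPM to 147–162 CPM (log2FC -0.37 ± 0.11, adjusted p = 0.0117; without WT replicate 1, log2FC -0.20, adjusted p = 0.128), and Ifngr2 lay at 133–166 and 146–155 CPM (log2FC -0.04 ± 0.09, adjusted p = 0.796). Ifnlr1 of the type III receptor was called higher at under 1 CPM (log2FC 1.07 ± 0.39, adjusted p = 0.0368), and was not called with replicate number as a block (adjusted p = 0.0586) or without WT replicate 2, WT replicate 3, cKO replicate 2 or cKO replicate 3 (adjusted p = 0.0928 to 0.211, log2FC 0.70 to 1.66 over all libraries left out). Of the 13 genes of receptors, their kinases and feedback, 4 were higher and 3 lower in cKO, the kinase gene Jak2 among the former and Tyk2 among the latter. The count of higher genes was 2 without WT replicate 2, WT replicate 3 or cKO replicate 2. Of 4 feedback genes 2 rose and 2 were not called, and the 2 named here were chosen because they were called. Usp18, an ISG15 protease that dampens receptor signalling, had 19.7, 12.1 and 18.97 CPM in WT and 63.6, 68.3 and 76.6 CPM in cKO (log2FC 2.04 ± 0.15, adjusted p = 7.42e-10), and Socs1 rose from 1.17–2.31 to 2.91–5.05 CPM (log2FC 1.11 ± 0.22, adjusted p = 3.22e-04).

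Irf7 and Stat2 rose, and most genes of the STAT and IRF families were not called. Of 16 STATs and IRFs, 4 rose and 2 fell (1 without WT replicate 3, cKO replicate 1 or cKO replicate 2), with a median log2FC of -0.06. Over all genes tested 18% rose and 16.7% fell. Irf7 (chr7:141262706-141266481) had 70.8, 40.7 and 104 CPM in WT and 337, 356 and 470.2 CPM in cKO (log2FC 2.44 ± 0.27, adjusted p = 2.72e-07), so that the lowest cKO library was above the highest WT library. Stat2 had 104, 92.5 and 122 CPM in WT and 184, 169.8 and 207 CPM in cKO (log2FC 0.81 ± 0.12, adjusted p = 1.84e-05). Irf5 also rose, and Stat5b was among those that fell.

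Antiviral effectors rose as a group. Of 45 tested, 36 were higher and 3 lower (Ifitm2 and Ifitm6 among them), and their median log2FC was 1.03, against -0.03 over all genes tested. Of the 6 Ifit genes, whose products bind foreign RNA, 5 rose, and of 9 genes of the Oas group, which acts on RNA, 8 rose and 1 fell. Small counts are named here and below with genes chosen after their values were seen. Oasl1, an OAS-like gene (chr5:114923240-114937915), had 7.89, 3.88 and 10.3 CPM in WT and 71.5, 63.8 and 82.9 CPM in cKO (log2FC 3.33 ± 0.23, adjusted p = 2.30e-10). Ifi44 (chr3:151730922-151749960) had 8.23, 0.969 and 3.40 CPM in WT and 52.9, 54.1 and 56.1 CPM in cKO (log2FC 3.74 ± 0.41, adjusted p = 2.00e-07). The genes with the largest log2FC on the list were Apol9b and Apol9a, near-identical apolipoprotein L genes whose reads may be divided between them: Apol9b had 0.0867, 0.125 and 0.197 CPM in WT and 11.1, 10.8 and 12.1 CPM in cKO (log2FC 6.38 ± 0.29, adjusted p = 1.97e-13) and Apol9a lay at 0.0313–0.0867 CPM in WT and 2.45–3.34 CPM in cKO (log2FC 5.60 ± 0.43, adjusted p = 1.53e-09). More usual ISGs changed less. Isg15, a ubiquitin-like modifier, had 17.6, 10.5 and 20.2 CPM in WT and 40.5, 35.01 and 43.8 CPM in cKO (log2FC 1.32 ± 0.21, adjusted p = 3.35e-05). Ifit1 had 33.4, 12.8 and 19.1 CPM in WT and 51.8, 46.9 and 48.3 CPM in cKO (log2FC 1.18 ± 0.28, adjusted p = 0.00207), and Mx1, a dynamin-like GTPase, had 31.2, 9.38 and 16.8 CPM in WT and 61.5, 43.7 and 45.4 CPM in cKO (log2FC 1.40 ± 0.36, adjusted p = 0.00337). WT replicate 1 was the highest WT library for Ifit1, Mx1 and Ifi44 and WT replicate 2 the lowest, and the cKO libraries lay above all of them.

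Further ISG families followed the same direction. All 7 Schlafen genes rose, with a median log2FC of 1.05, as did 5 of 8 PARP genes and 4 of 9 TRIM genes, and none of these 24 genes was called lower. Slfn1 had 4.64, 0.876 and 2.46 CPM in WT and 38.4, 28.4 and 27.97 CPM in cKO (log2FC 3.62 ± 0.39, adjusted p = 1.41e-07). Parp11, a mono-ADP-ribosyltransferase, had 25.5, 20.1 and 24.6 CPM in WT and 52.04, 51.7 and 55.4 CPM in cKO (log2FC 1.18 ± 0.09, adjusted p = 1.26e-09), and Trim30b rose from 1.84–2.38 to 6.79–8.19 CPM (log2FC 1.90 ± 0.20, adjusted p = 1.02e-07). Of 17 guanylate-binding proteins and immunity-related GTPases, which attack the vacuoles of intracellular microbes, 13 rose and none fell. All 9 immunity-related GTPases rose, and 4 of 8 guanylate-binding proteins (Gbp4, Gbp6, Gbp8 and Gbp9). Gbp4 is annotated as overlapping Gbp8 and Gbp9 on the same strand, over 23774 and 23773 bases, so their counts are not independent. Gbp6 and Tgtp1 also overlap other genes on the same strand, and their counts are less certain. Gbp6 rose from 0.0938–0.65 to 4.55–5.23 CPM (log2FC 3.90 ± 0.31, adjusted p = 2.18e-09), Gbp4 from 0.188–0.788 to 7.02–8.22 CPM (log2FC 3.81 ± 0.36, adjusted p = 3.12e-08) and Tgtp1 from 0.0493–0.217 to 0.727–1.28 CPM (log2FC 2.90 ± 0.49, adjusted p = 5.90e-05). All 3 genes lay under 1 CPM in every WT library.

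Sensors of nucleic acid rose in part. Of 24, 15 rose and 3 fell. All 8 genes of the Ifi200 family, cytosolic and nuclear DNA-binding proteins clustered on chromosome 1, rose (median log2FC 1.69). Ifi213 (chr1:173566283-173599274) had 5.50, 1.16 and 3.35 CPM in WT and 45.4, 40.1 and 39.8 CPM in cKO (log2FC 3.70 ± 0.37, adjusted p = 5.22e-08), and Ifi206 (chr1:173468485-173491041) had 8.54, 2.03 and 4.09 CPM in WT and 63.2, 55.9 and 61.96 CPM in cKO (log2FC 3.66 ± 0.32, adjusted p = 9.95e-09). Ifi205 rose from 0.219–0.737 to 2.65–4.03 CPM (log2FC 2.77 ± 0.42, adjusted p = 1.52e-05). Ifi202b stayed under 0.5 CPM in every library (log2FC 3.18 ± 0.99, adjusted p = 0.0144; adjusted p = 0.0781 without WT replicate 2). Zbp1, a sensor of left-handed nucleic acid, had 24.6, 11.1 and 22.1 CPM in WT and 69.7, 59.6 and 70.2 CPM in cKO (log2FC 1.80 ± 0.28, adjusted p = 1.78e-05). Among genes of RNA sensing 6 of 11 rose and 3 fell (Mavs, Tlr7 and Ikbke), with Ifih1, the sensor of long double-stranded RNA, at 63.1, 49.9 and 59.03 CPM in WT and 103, 99.4 and 113 CPM in cKO (log2FC 0.88 ± 0.12, adjusted p = 2.88e-06). Among 5 other DNA sensing genes 1 rose, Cgas, the cyclic GMP-AMP synthase, with 14.7, 17.7 and 12.7 CPM in WT and 34.5, 35.1 and 34.1 CPM in cKO (log2FC 1.19 ± 0.12, adjusted p = 8.93e-08).

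Genes of antigen presentation by MHC class I were mostly higher in cKO, and most class II genes were not called. Of 11 class I genes 10 rose, as did 6 of 11 genes of peptide processing and loading, and none fell. H2-Q6 (chr17:35424850-35430055) and H2-Q7 (chr17:35439155-35443773), non-classical class I genes of the Qa-2 group, had 5.07, 1.63 and 4.14 CPM in WT and 109, 93.9 and 86.6 CPM in cKO (log2FC 4.79 ± 0.42, adjusted p = 9.68e-09) and 6.72, 1.97 and 6.01 CPM in WT and 80.1, 65.9 and 56.2 CPM in cKO (log2FC 3.83 ± 0.41, adjusted p = 1.71e-07). The shared light chain gene B2m had 1406, 944 and 1182 CPM in WT and 2540.1, 2421 and 2424 CPM in cKO (log2FC 1.06 ± 0.13, adjusted p = 9.73e-07). The classical H2-K1 had 825, 638 and 1053 CPM in WT and 1799, 1888 and 1991 CPM in cKO (log2FC 1.17 ± 0.14, adjusted p = 8.54e-07). H2-Q4 rose 2.82-fold in mean level, from 21.9–33.5 to 76.4–81.99 CPM (adjusted p = 1.44e-09) and H2-T10 from 3.91–5.96 to 10.4–13.2 CPM (log2FC 1.34 ± 0.16, adjusted p = 7.87e-07). H2-T10 overlaps Gm7030 on the same strand over 5590 bases, so its count is less certain. Of 10 class II genes 2 rose, H2-Oa (log2FC 2.16 ± 0.50, adjusted p = 0.00154) and H2-DMb2 (log2FC 1.58 ± 0.21, adjusted p = 3.01e-06), both at under 5 CPM. Their summed level was 217–679.9 CPM in WT, highest in WT replicate 1, and 426–484 CPM in cKO; 1 class II gene was called lower without WT replicate 2.

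The promoters of these genes were read for the interferon-stimulated response element, which binds the IRFs. Its half-site pair was searched as GAAANNGAAA on both strands, from 250 bases before to 50 after each start in RefSeq (GRCm38.p6), and overlapping matches were kept. Of all genes with a promoter there, 3.99% held a match, and of the tested genes with one 3.95%. A match was found for 19 of 37 antiviral effectors with a promoter (51.4%), 10 of 21 Schlafen, PARP and TRIM genes (47.6%), 10 of 11 GBP and immunity-related GTPase genes (90.9%), 5 of 7 Ifi200 genes (71.4%) and 5 of 17 class I and processing genes (29.4%). Of the 12 genes with the largest rise 11 had a promoter and 2 of these a match, and none of 7 with the largest fall had one. Shown are the 150 bases before the start, on the strand of the gene, of genes named above: first 4 with a match, then the genes Slfn4 and Oasl1, whose windows held none, which says only that these letters are absent there. Of 21 cytosolic ribosomal protein genes with a promoter 4 also held a match. Capitals mark the match, and a match is no evidence of binding.
Ifi213, chr1:173599273-173599422, minus strand: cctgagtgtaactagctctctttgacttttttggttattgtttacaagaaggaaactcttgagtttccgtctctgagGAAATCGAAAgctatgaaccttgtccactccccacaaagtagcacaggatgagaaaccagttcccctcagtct
Parp11, chr6:127446690-127446839, plus strand: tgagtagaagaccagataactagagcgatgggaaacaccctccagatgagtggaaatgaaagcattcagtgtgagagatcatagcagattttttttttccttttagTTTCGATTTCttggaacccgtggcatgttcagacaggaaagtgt
Tgtp1, chr11:48992247-48992396, minus strand: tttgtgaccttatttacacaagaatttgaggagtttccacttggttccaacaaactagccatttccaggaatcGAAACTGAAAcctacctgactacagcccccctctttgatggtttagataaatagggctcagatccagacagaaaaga
Apol9b, chr15:77728922-77729071, plus strand: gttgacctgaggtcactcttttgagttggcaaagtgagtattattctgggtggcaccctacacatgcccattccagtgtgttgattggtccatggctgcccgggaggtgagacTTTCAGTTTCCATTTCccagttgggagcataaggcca
Slfn4, chr11:83175036-83175185, plus strand: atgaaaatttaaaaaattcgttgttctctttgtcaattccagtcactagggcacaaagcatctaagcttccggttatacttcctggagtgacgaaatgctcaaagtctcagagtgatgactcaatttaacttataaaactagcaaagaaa
Oasl1, chr5:114923090-114923239, plus strand: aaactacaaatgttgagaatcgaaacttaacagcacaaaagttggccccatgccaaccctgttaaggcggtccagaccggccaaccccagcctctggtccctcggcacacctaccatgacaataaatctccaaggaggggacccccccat
In Apol9b 2 overlapping matches run together, and in Parp11 and Apol9b the match reads on the opposite strand. The first match began 73, 44, 77 and 37 bases before the start in Ifi213, Parp11, Tgtp1 and Apol9b.

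**Figure D4:**
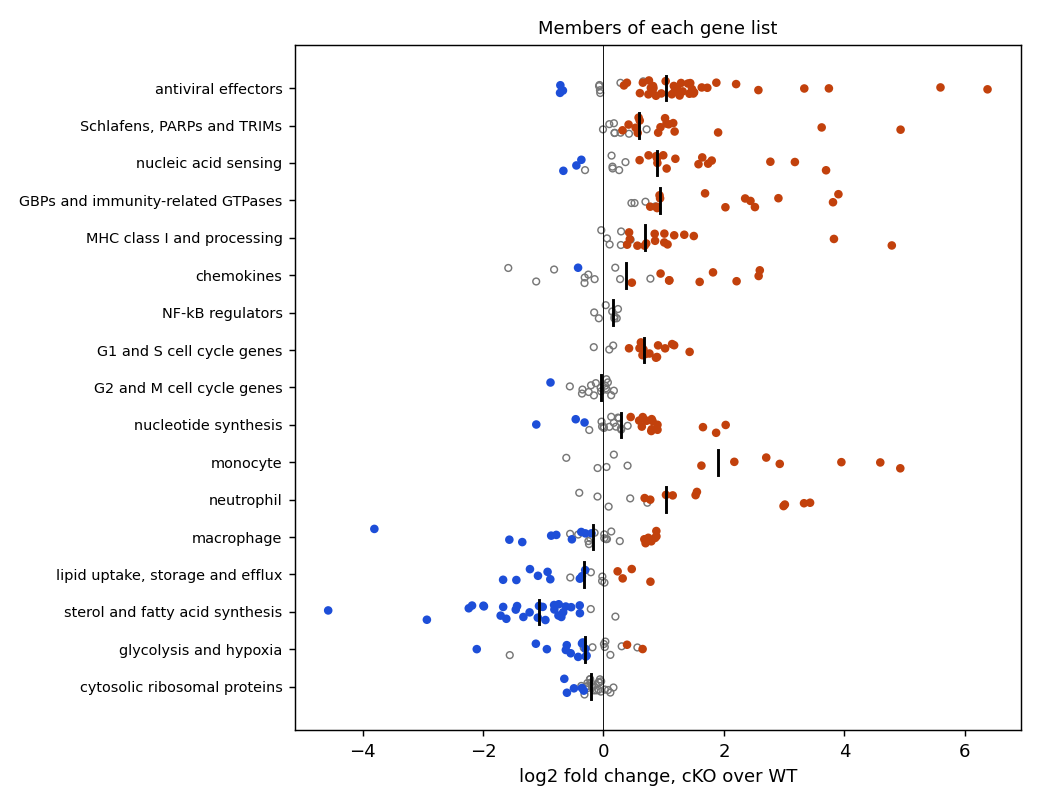
Log2FC of cKO over WT for the tested members of 17 gene lists. Filled points were called (orange higher, blue lower), open points were not, vertical scatter within a row has no meaning, and black bars mark medians, from 1.90 for monocyte markers to -1.07 for sterol and fatty acid synthesis.

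Genes of lipid synthesis were lower in cKO almost without exception. Of 20 genes of sterol synthesis and its control 19 fell, and of 9 of fatty acid synthesis 8 fell, with none higher. The summed level of the whole list was 3033–4429.9 CPM in WT and 1500.1–1549 CPM in cKO. These genes are driven by the SREBP factors, which are released when sterol is low. Insig1, which holds SREBP in the endoplasmic reticulum, had 155, 209.7 and 184 CPM in WT and 45.2, 48.6 and 45.00 CPM in cKO (log2FC -1.98 ± 0.20, adjusted p = 8.24e-08). The groups were well apart and the cKO libraries close together. Srebf2, which encodes SREBP2, fell less, with 244, 344 and 332 CPM in WT and 177, 172 and 199.6 CPM in cKO (log2FC -0.75 ± 0.14, adjusted p = 2.39e-04).

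For fatty acids, Scd2 had 642, 1048 and 718 CPM in WT and 116, 106 and 93.6 CPM in cKO (log2FC -2.93 ± 0.40, adjusted p = 4.13e-06), the desaturase Fads2 had 90.4, 172 and 136 CPM in WT and 30.9, 29.9 and 27.01 CPM in cKO (log2FC -2.18 ± 0.43, adjusted p = 3.14e-04), and Fasn, the fatty acid synthase, fell from 228–348 to 171–186 CPM (log2FC -0.67 ± 0.19, adjusted p = 0.00697; adjusted p = 0.0552 without WT replicate 2). WT replicate 2 was the highest library for Scd1, Scd2, Fads2 and Fasn. A sterol regulatory element, searched as TCACNCCAC on both strands in the same windows, was found in 1 of 12 sterol genes with a promoter and in 1.46% of tested genes with one. Of 18 genes of lipid uptake, storage and efflux 9 fell and 4 rose. Lpin1, a phosphatidate phosphatase, had 58.3, 50.4 and 51.3 CPM in WT and 15.3, 16.8 and 18.2 CPM in cKO (log2FC -1.67 ± 0.12, adjusted p = 4.46e-10), and the fatty acid carriers Fabp5 and Fabp4 fell from 151–221 to 68.9–73.7 CPM (log2FC -1.45 ± 0.20, adjusted p = 4.38e-06) and from 8.80–9.81 to 3.90–4.31 CPM (log2FC -1.22 ± 0.24, adjusted p = 3.32e-04). Sptssa, a subunit of serine palmitoyltransferase, fell from 109–149 to 51.2–64.4 CPM (log2FC -1.09 ± 0.13, adjusted p = 1.11e-06). The scavenger receptor gene Cd36 rose from 644–753 to 952–972 CPM (log2FC 0.47 ± 0.15, adjusted p = 0.0194; adjusted p = 0.0753 without WT replicate 3).

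Cell cycle genes separated by phase. Of 18 genes of G1 and S phase 15 were higher in cKO (median log2FC 0.68; 9 without WT replicate 1), and of 17 of G2 and mitosis none was higher and 1, Ccnb2, was lower (median -0.05; over the whole cell cycle list 2 were lower without WT replicate 1 and with replicate number as a block). Ccne1, a cyclin of entry into S phase, had 11.01, 16.1 and 9.51 CPM in WT and 32.2, 33.6 and 33.8 CPM in cKO (log2FC 1.43 ± 0.24, adjusted p = 4.60e-05). Cdc6, which loads the replicative helicase, had 16.8, 21.4 and 14.4 CPM in WT and 35.3, 41.6 and 39.5 CPM in cKO (log2FC 1.14 ± 0.19, adjusted p = 6.09e-05). The helicase subunit Mcm2 had 69.1, 99.3 and 78.00 CPM in WT and 152, 176 and 174 CPM in cKO (log2FC 1.02 ± 0.22, adjusted p = 8.13e-04). For these genes WT replicate 2 was the highest WT library and remained under every cKO library. Ccne2 rose from 13.8–30.5 to 45.9–64.7 CPM (log2FC 1.17 ± 0.25, adjusted p = 7.04e-04), Mcm6 from 141–196 to 285–321 CPM (log2FC 0.89 ± 0.19, adjusted p = 6.03e-04) and Rrm2, a subunit of ribonucleotide reductase, from 71.2–111 to 151–170.2 CPM (log2FC 0.87 ± 0.20, adjusted p = 0.00165). The proliferation marker Mki67 had 641, 982 and 599 CPM in WT and 681, 643 and 668 CPM in cKO (log2FC -0.16 ± 0.20, adjusted p = 0.573), and its highest and lowest values were both of WT libraries. An E2F site, searched as TTTGGCGC or TTTCCCGC on both strands, was found in the promoter window of 6 of 14 G1 and S genes (42.9%), none of 15 G2 and M genes and 3.3% of tested genes with a promoter. Cdc6 is shown as an example, with the match in capitals 138 bases before the start, where it reads on the opposite strand.
Cdc6, chr11:98908001-98908150, plus strand: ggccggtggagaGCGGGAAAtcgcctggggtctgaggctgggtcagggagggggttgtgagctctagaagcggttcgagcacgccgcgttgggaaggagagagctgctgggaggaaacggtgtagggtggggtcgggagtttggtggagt

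Of 31 genes of nucleotide synthesis 14 rose and 3 fell (Gmpr, Impdh1 and Ctps2). Ctps, the CTP synthase, had 7.58, 10.1 and 5.81 CPM in WT and 23.3, 25.6 and 25.9 CPM in cKO (log2FC 1.65 ± 0.23, adjusted p = 5.43e-06), and Dctd, a deoxycytidylate deaminase, rose from 1.603–2.38 to 6.23–7.84 CPM (log2FC 1.87 ± 0.23, adjusted p = 1.16e-06). Gmpr, which turns GMP back to IMP, fell from 12.05–17.9 to 6.55–8.001 CPM (log2FC -1.12 ± 0.16, adjusted p = 9.63e-06; log2FC -0.74 from strand-specific counts).

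None of the 10 replication-coupled H3 genes tested was called, in the edgeR test (0 at an unadjusted p under 0.05) or under any alternative but one (2 higher without the filter on low counts), and 2 more were not tested. Hist1h3e, the most abundant, had 225, 402 and 467 CPM in WT and 286, 325 and 307 CPM in cKO (log2FC -0.25 ± 0.26, adjusted p = 0.49), and the WT range enclosed the cKO range. Of 12 histone H3 chaperone genes 7 were higher and 1 was lower, none by as much as 1 on the log2 scale. In the HIRA group, 1 of 5 genes rose, Asf1a, and 1 fell, Ubn1. Both Daxx and Atrx rose, as did 4 of 5 other H3 chaperone genes (Chaf1a, Chaf1b, Dek and Nasp), of which Chaf1a and Chaf1b act on replication-coupled H3. Daxx had 49.3, 39.7 and 56.2 CPM in WT and 71.8, 66.9 and 76.3 CPM in cKO (log2FC 0.57 ± 0.10, adjusted p = 1.52e-04). Asf1a (log2FC 0.57 ± 0.16, adjusted p = 0.00683), Chaf1b (log2FC 0.56 ± 0.18, adjusted p = 0.02) and Nasp (log2FC 0.53 ± 0.18, adjusted p = 0.0227) were called with larger uncertainty, and the count of 7 was 4 without WT replicate 1 or cKO replicate 1 and 2 without WT replicate 3 or cKO replicate 2. Of 18 genes of heterochromatin and retroelement silencing 8 rose (4 without WT replicate 3) and 2 fell, Ehmt2 and Dnmt3a (1 without WT replicate 3 or cKO replicate 2). The largest rises were those of genes that act at replication forks: Hells, a chromatin remodeller, had 17.9, 31.3 and 13.9 CPM in WT and 47.9, 57.1 and 44.97 CPM in cKO (log2FC 1.23 ± 0.25, adjusted p = 4.07e-04), Uhrf1 rose from 88.2–131 to 183–204 CPM (log2FC 0.91 ± 0.24, adjusted p = 0.00401) and Dnmt1, the maintenance DNA methyltransferase, from 220.3–310.2 to 372–402 CPM (log2FC 0.56 ± 0.13, adjusted p = 0.00142). Mphosph8 of the HUSH complex had 12.4, 14.7 and 8.62 CPM in WT and 16.1, 16.5 and 14.8 CPM in cKO (log2FC 0.39 ± 0.14, adjusted p = 0.0279; not called without WT replicate 3, cKO replicate 1 or cKO replicate 2, adjusted p = 0.195, 0.0673 and 0.0818).

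Targets of p53 moved both ways, with 7 of 20 higher and 5 lower in cKO (Bbc3, Fas, Trp53inp1, Sesn1 and Eda2r) and a median log2FC of 0.02. Cdkn1a, the p21 inhibitor of cyclin-dependent kinases, had 187, 211 and 153 CPM in WT and 249.6, 256 and 297 CPM in cKO (log2FC 0.54 ± 0.12, adjusted p = 9.55e-04). Plk3 rose from 6.26–10.96 to 21.2–26.6 CPM (log2FC 1.56 ± 0.16, adjusted p = 1.14e-07), Trp53i11 from 0.345–0.688 to 3.90–4.83 CPM (log2FC 3.10 ± 0.34, adjusted p = 2.38e-07) and the BH3-only gene Pmaip1 from 6.01–12.4 to 22.8–30.5 CPM (log2FC 1.55 ± 0.19, adjusted p = 1.12e-06). Eda2r lay under 0.6 CPM in every library (log2FC -1.83 ± 0.61, adjusted p = 0.023; adjusted p = 0.224 without WT replicate 2 and 0.105 without cKO replicate 1). Of 29 genes of apoptosis and necroptosis 10 rose and 7 fell. Both groups held genes for and against cell death: Bcl2, which blocks apoptosis, had 18.8, 23.2 and 12.6 CPM in WT and 35.98, 40.2 and 38.7 CPM in cKO (log2FC 1.06 ± 0.19, adjusted p = 1.23e-04), and Bmf, which promotes it, had 51.4, 21.5 and 37.5 CPM in WT and 13.5, 10.2 and 10.7 CPM in cKO (log2FC -1.68 ± 0.31, adjusted p = 1.74e-04). Casp12 (log2FC 1.31 ± 0.45, adjusted p = 0.0252) and Bcl2a1b (log2FC -0.91 ± 0.32, adjusted p = 0.0278) were called at low levels and each lost its call when single libraries were left out, with adjusted p up to 0.128 and 0.117. Bcl2a1b overlaps Gm29094 on the same strand over 8449 bases, so its count is less certain.

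Several chemokine genes rose, among them the neighbours Ccl2, Ccl7 and Ccl12. Of 20 chemokine genes 9 rose and 1, Ccl9, fell (2 without WT replicate 2 or WT replicate 3). Ccl2, which recruits monocytes through Ccr2 (chr11:82035571-82037453), had 89.9, 74.01 and 37.2 CPM in WT and 294, 300.1 and 338 CPM in cKO (log2FC 2.21 ± 0.24, adjusted p = 2.26e-07). Ccl7, its neighbour (chr11:82045712-82047525), had 40.7, 30.6 and 14.98 CPM in WT and 159, 167 and 190.0 CPM in cKO (log2FC 2.58 ± 0.31, adjusted p = 6.89e-07), and Ccl12 rose from 2.27–3.68 to 14.96–18.8 CPM (log2FC 2.60 ± 0.26, adjusted p = 6.73e-08). All 3 lie within a short stretch of chromosome 11, and a gene annotated on the opposite strand spans Ccl2. Cxcl10, an interferon-inducible chemokine, had 14.6, 2.50 and 3.10 CPM in WT and 23.6, 15.7 and 21.4 CPM in cKO (log2FC 1.597 ± 0.49, adjusted p = 0.0139) and was not called without WT replicate 2 or WT replicate 3 (adjusted p = 0.0767 and 0.0783; log2FC 2.87 without WT replicate 1). Ccl22 rose from 0.657–0.997 to 1.75–3.47 CPM (log2FC 1.82 ± 0.43, adjusted p = 0.0017).

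Of 13 cytokine genes 4 rose (Tnf, Tnfsf10, Il12b and Tgfb1) and 1 fell, and none of 8 NF-kB regulators was called by edgeR (0 at an unadjusted p under 0.05), with log2FC values from -0.15 to 0.24. Tnf (chr17:35199381-35202007) had 43.4, 32.1 and 24.7 CPM in WT and 95.8, 83.8 and 94.4 CPM in cKO (log2FC 1.45 ± 0.13, adjusted p = 9.93e-09). Tnfsf10, the ligand TRAIL, rose from 1.66–5.16 to 6.89–8.10 CPM (log2FC 1.37 ± 0.28, adjusted p = 4.46e-04), and Il15 fell from 22.5–32.2 to 19.4–20.3 CPM (log2FC -0.49 ± 0.11, adjusted p = 8.17e-04). Il12b was nearly absent from WT, at 0–0.0433 CPM, and lay at 1.29–2.29 CPM in cKO (adjusted p = 7.69e-07). Of 14 matrix protease genes 5 rose (Mmp8 and those below) and 2 fell, Mmp14 and Mmp19 (1 without WT replicate 1, cKO replicate 1 or cKO replicate 2). Plau, the urokinase gene, had 368, 250.2 and 242 CPM in WT and 848, 962 and 918 CPM in cKO (log2FC 1.66 ± 0.23, adjusted p = 4.50e-06), and its receptor gene Plaur had 28.3, 20.01 and 19.7 CPM in WT and 56.4, 54.5 and 59.4 CPM in cKO (log2FC 1.33 ± 0.12, adjusted p = 1.73e-08). Adam8 had 724, 568 and 601 CPM in WT and 1622, 1617 and 1789.9 CPM in cKO (log2FC 1.41 ± 0.14, adjusted p = 4.68e-08). For these 3 genes the lowest cKO library was well above the highest WT library. Mmp13 had 11.8, 2.75 and 3.25 CPM in WT and 18.4, 13.4 and 17.9 CPM in cKO (log2FC 1.49 ± 0.43, adjusted p = 0.00881; log2FC 2.48 without WT replicate 1, adjusted p = 0.0591 without WT replicate 2 and 0.0559 without WT replicate 3). Of 17 complement and Fc receptor genes 7 rose and 2 fell: C4b rose from 0.438–1.18 to 6.74–9.37 CPM (log2FC 3.36 ± 0.40, adjusted p = 7.35e-07). C2 lay under 1 CPM (log2FC 1.64 ± 0.44, adjusted p = 0.00566), and it overlaps Zbtb12 on the other strand and a read-through gene. It was not called from strand-specific counts (log2FC 0.28, adjusted p = 0.377) or without WT replicate 2 (adjusted p = 0.0538). Cfb had no count in WT and 0.43–0.852 CPM in cKO (adjusted p = 1.37e-04), and it shares its whole length with a read-through gene.

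The cells carried macrophage markers in both groups. Of 28 macrophage genes 7 rose and 9 fell (median -0.17), and the summed level of the 18 defining markers was 12066–17837 CPM in WT and 14243–14591 CPM in cKO. Adgre1, which encodes F4/80, had 1576, 839.9 and 1358 CPM in WT and 1307, 1300.0 and 1322 CPM in cKO (log2FC 0.06 ± 0.17, adjusted p = 0.826). Csf1r, the receptor of macrophage colony-stimulating factor, had 3069.6, 1607 and 2458 CPM in WT and 1789.9, 1646 and 1895 CPM in cKO (log2FC -0.42 ± 0.21, adjusted p = 0.118). Neither was called, but Csf1r was called lower without WT replicate 2 (log2FC -0.64, adjusted p = 0.016), without the filter on low counts (adjusted p = 2.13e-04) and without set 3 and the Irf7 double KO (adjusted p = 0.0329), and its log2FC was -0.19 without WT replicate 1. Itgam, which encodes CD11b, was barely called, with 165, 134 and 117 CPM in WT and 118, 106 and 114 CPM in cKO (log2FC -0.30 ± 0.12, adjusted p = 0.0499), and leaving out any of 5 libraries ended the call (adjusted p up to 0.33). Itgam also overlaps the protein-coding Gm49368 on the same strand over 55809 bases, so its count is less certain. Among those that fell, Mrc1, the mannose receptor, had 1287, 1381 and 1204 CPM in WT and 461, 405 and 444 CPM in cKO (log2FC -1.56 ± 0.14, adjusted p = 7.07e-09), Cd163, the haptoglobin receptor, fell from 41.9–55.5 to 16.3–20.8 CPM (log2FC -1.35 ± 0.16, adjusted p = 4.87e-07), and Marco from 2.04–12.6 to 0.0655–1.26 CPM (log2FC -3.80 ± 0.61, adjusted p = 3.07e-05). Msr1, another scavenger receptor, rose from 136–215 to 280.1–339 CPM (log2FC 0.88 ± 0.19, adjusted p = 8.17e-04). Of 13 genes of alternative activation 5 fell (3 without cKO replicate 2) and 3 rose. Arg1, which cleaves arginine, had 16.1, 2.81 and 7.14 CPM in WT and 0.95, 0.719 and 0.496 CPM in cKO (log2FC -3.57 ± 0.50, adjusted p = 5.86e-06), with wide spread in WT, and Chil3 rose from 15.1–32.9 to 49.7–89.1 CPM (log2FC 1.63 ± 0.31, adjusted p = 2.63e-04).

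Markers of other cells moved as well. Of 12 monocyte markers 7 rose and none fell (1 without WT replicate 2), and their summed level was 345–696 CPM in WT and 737–1019 CPM in cKO. Besides Plac8, Ly6c2 and Plbd1 these included Ms4a4c (log2FC 2.93 ± 0.36, adjusted p = 1.06e-06). Ccr2, the receptor of Ccl2 and a defining monocyte marker, had 209, 99.7 and 155 CPM in WT and 217, 156 and 106 CPM in cKO (log2FC 0.05 ± 0.38, adjusted p = 0.937) and was not called. Of 15 neutrophil markers 10 rose and none fell (1 without WT replicate 2), with a summed level of 149–251 CPM in WT and 428–501 CPM in cKO. The granule enzymes of early myeloid cells rose together: Mpo had 4.77, 4.97 and 6.46 CPM in WT and 40.8, 46.2 and 40.9 CPM in cKO (log2FC 2.99 ± 0.31, adjusted p = 9.15e-08) and Elane had 5.37, 3.81 and 4.93 CPM in WT and 35.5, 44.03 and 33.5 CPM in cKO (log2FC 3.01 ± 0.32, adjusted p = 1.41e-07). Prtn3 (log2FC 3.33 ± 0.36, adjusted p = 2.00e-07) and Ctsg (log2FC 3.43 ± 0.40, adjusted p = 5.71e-07) rose as well. Genes of later granules were also higher, with Ngp at 28.8, 14.3 and 23.2 CPM in WT and 74.4, 67.9 and 50.9 CPM in cKO (log2FC 1.55 ± 0.30, adjusted p = 2.91e-04) and S100a8 at 22.4, 12.5 and 12.9 CPM in WT and 34.1, 43.1 and 20.7 CPM in cKO (log2FC 1.04 ± 0.27, adjusted p = 0.00462). The monocyte marker Ly6c1 and the neutrophil marker Ly6g had too few counts to be tested. The part of such cells in the other results was not tested.

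Of 12 dendritic cell markers 8 rose and 2, Cd209a and Tcf4, fell (1 without WT replicate 1, WT replicate 2 or cKO replicate 2). Those that rose included Flt3 (0.469–1.23 to 3.93–4.34 CPM, log2FC 2.21 ± 0.44, adjusted p = 3.56e-04), Ccr7 (log2FC 2.30 ± 0.49, adjusted p = 7.41e-04), Dpp4 (log2FC 2.33 ± 0.46, adjusted p = 3.01e-04) and Siglech (log2FC 1.84 ± 0.44, adjusted p = 0.00204). Itgax, which encodes CD11c, had 15.3, 7.75 and 12.8 CPM in WT and 27.9, 31.2 and 34.3 CPM in cKO (log2FC 1.39 ± 0.25, adjusted p = 1.24e-04), and in set 2 it fell, from 70.8–101 to 11.8–14.3 CPM (difference 4.10, adjusted p = 4.97e-08). B cell markers were scarce, their sum over the 8 genes tested being 5.72–13.3 CPM in WT and 18.2–24.6 CPM in cKO, and 6 of 8 were called higher (3 without cKO replicate 2 or cKO replicate 3). Pax5 (log2FC 4.16 ± 0.89, adjusted p = 7.39e-04; log2FC 6.41 from strand-specific counts) and Ms4a1 (log2FC 3.73 ± 0.71, adjusted p = 2.26e-04) had their lowest cKO level in cKO replicate 1, and Blk (log2FC 3.76 ± 1.44, adjusted p = 0.0449; adjusted p = 0.0637 with the replicate block and 0.0501 to 0.162 without any library but cKO replicate 1) and Ebf1 (log2FC 2.20 ± 0.77, adjusted p = 0.0279; adjusted p up to 0.0952 without single libraries) were fainter still. Of 13 T and NK cell markers 10, Cd3d, Cd3e and Cd3g among them, had too few counts to be tested, and of those tested 1 rose, Nkg7, at under 1 CPM (log2FC 3.17 ± 0.71, adjusted p = 0.0012), and without WT replicate 2 another was called lower. Of 14 stromal markers 3 rose, against 18% of all genes tested: Kitl (log2FC 1.31 ± 0.23, adjusted p = 9.21e-05), Postn (log2FC 1.63 ± 0.46, adjusted p = 0.00751) and Sparc (log2FC 1.27 ± 0.46, adjusted p = 0.0338). The count was 7 without WT replicate 1 or with only the libraries compared, 8 without the filter on low counts and 1 without WT replicate 2. Sparc was also not called without WT replicate 3, cKO replicate 1 or cKO replicate 3, nor from strand-specific counts (adjusted p up to 0.181 over the libraries left out). Of 14 erythroid, megakaryocyte and mast cell genes 3 rose, Prss34 (log2FC 3.40 ± 0.75, adjusted p = 9.34e-04), Kit (log2FC 1.48 ± 0.31, adjusted p = 6.10e-04) and Gata2 (log2FC 1.94 ± 0.64, adjusted p = 0.0212; log2FC 1.29 to 3.87 when single libraries were left out, and not called without WT replicate 2, WT replicate 3, cKO replicate 1 or cKO replicate 2, adjusted p up to 0.13), and 2 fell, Vwf and Epor (log2FC -1.89 ± 0.44, adjusted p = 0.00178). Of 8 osteoclast genes 2 rose, Ocstamp (log2FC 3.22 ± 0.65, adjusted p = 4.07e-04; log2FC 7.70 without WT replicate 3) and Acp5 (log2FC 0.85 ± 0.23, adjusted p = 0.00612; 1 without WT replicate 2), and 1 fell, Atp6v0d2 (log2FC -1.23 ± 0.39, adjusted p = 0.0176; log2FC -0.77 without WT replicate 1, and between 0 and 4 genes fell when single libraries were left out).

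Counts of other metabolic and housekeeping lists depended on single libraries, both WT and cKO. Of 23 genes of glycolysis and hypoxia 12 fell, but 4 without WT replicate 3, 7 without cKO replicate 1 and 6 without cKO replicate 2, and 2 rose, Hk2 and Pfkp (5 without WT replicate 1). Egln3, a prolyl hydroxylase induced by hypoxia, had 31.9, 10.8 and 24.9 CPM in WT and 5.01, 5.19 and 5.46 CPM in cKO (log2FC -2.10 ± 0.27, adjusted p = 2.08e-06), and Bnip3 had 35.8, 19.6 and 30.7 CPM in WT and 14.1, 15.6 and 15.04 CPM in cKO (log2FC -0.94 ± 0.16, adjusted p = 6.09e-05). Vegfa had 160.3, 62.1 and 92.3 CPM in WT and 57.7, 43.9 and 42.7 CPM in cKO (log2FC -1.12 ± 0.31, adjusted p = 0.00676; log2FC -0.67, adjusted p = 0.0904 without WT replicate 1), Pgk1 fell from 259.8–328 to 188–201 CPM (log2FC -0.62 ± 0.12, adjusted p = 2.28e-04) and Hk2, a hexokinase, had 74.8, 41.8 and 44.3 CPM in WT and 71.4, 82.7 and 98.2 CPM in cKO (log2FC 0.65 ± 0.16, adjusted p = 0.00216). Of 28 ribosomal protein genes 5 fell, near the 16.7% of all genes tested that fell, and none rose. But 0 fell without WT replicate 3, 9 without WT replicate 1 and 3 without any 1 of the cKO libraries. Rps2 had 618, 770.2 and 969 CPM in WT and 462, 544 and 541 CPM in cKO (log2FC -0.61 ± 0.16, adjusted p = 0.00487), Rps14 (log2FC -0.65 ± 0.17, adjusted p = 0.00476), Rps3 (log2FC -0.49 ± 0.14, adjusted p = 0.00927) and Rpl7a (log2FC -0.36 ± 0.13, adjusted p = 0.0319) were likewise highest in WT replicate 3, and these genes have many processed copies. Of 12 housekeeping genes 1 rose (2 without cKO replicate 2 or with replicate number as a block), Ywhaz (log2FC 0.44 ± 0.08, adjusted p = 1.96e-04), and 2 fell (1 without WT replicate 3), Pgk1 and Rpl13a (log2FC -0.47 ± 0.14, adjusted p = 0.0114). Rpl13a overlaps Gm45713 on the same strand over 2840 bases, so its count is less certain.

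Of 25 lysosomal genes 8 rose (5 without cKO replicate 3) and 4 fell, Ctsb, Ctsf, Lamp1 and Hexa (2 without WT replicate 3). The cathepsin genes went both ways: Ctsc rose from 240.1–341 to 471–483 CPM (log2FC 0.76 ± 0.11, adjusted p = 1.42e-05), Ctsh from 83.9–149 to 214–215 CPM (log2FC 0.77 ± 0.18, adjusted p = 0.0015), and Ctsf fell from 10.2–18.9 to 3.90–5.12 CPM (log2FC -1.76 ± 0.28, adjusted p = 2.79e-05). Of 16 genes of the integrated stress response 3 rose and 1 fell (0 to 2 when single libraries were left out). Ddit3, which encodes CHOP, had 11.1, 9.16 and 10.7 CPM in WT and 20.9, 20.8 and 24.1 CPM in cKO (log2FC 1.09 ± 0.14, adjusted p = 2.64e-06), Chac1 rose from 1.18–2.75 to 3.97–4.83 CPM (log2FC 1.16 ± 0.30, adjusted p = 0.00433), Slc3a2 from 171–227 to 244–299 CPM (log2FC 0.47 ± 0.11, adjusted p = 0.0016), and Vldlr lay under 2 CPM (log2FC -1.36 ± 0.45, adjusted p = 0.0217; adjusted p = 0.119 without WT replicate 1 and 0.104 without cKO replicate 2). Of 17 immediate early genes 2 rose, Jun (log2FC 0.43 ± 0.11, adjusted p = 0.00443) and Dusp1 (log2FC 1.12 ± 0.40, adjusted p = 0.0328; log2FC 1.85 without WT replicate 1, and the count was 1 without WT replicate 2, WT replicate 3 or cKO replicate 1), and 1 fell (2 with replicate number as a block), Ier3, with 79.3, 20.1 and 26.9 CPM in WT and 23.4, 15.2 and 20.8 CPM in cKO (log2FC -1.08 ± 0.41, adjusted p = 0.0445), a call that ended without any library but WT replicate 2 or WT replicate 3. The count of lower genes on this list was 7 without the filter on low counts, and 0 with only the libraries compared or from strand-specific counts. The summed level of the list was highest in WT replicate 1, within 1162–3227 CPM in WT and 1352–2337 CPM in cKO.

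The same genotypes were compared in BMDM set 2, which shares no library with set 1. There 3803 genes were called (21%), 1761 higher (9.74%) and 2042 lower (11.3%). Genes called in the same direction in both sets numbered 1713, which is 27.3% of the calls of set 1 and 45.0% of those of set 2, and 303 were called in opposite directions. Of the 1774 genes that changed by at least 1 on the log2 scale in set 1, 695 (39.2%) were called in the same direction in set 2 and 46 in the opposite one. The response itself differed between the sets, by the interaction term, in 3625 genes (20%), 2103 with the higher log2FC in set 1 (11.6%) and 1522 with the lower (8.42%).

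Counts of the antiviral and lipid synthesis lists were close in both sets. In set 2, 35 of 45 antiviral effectors rose, with a median log2FC of 1.07, and the response differed between sets in 8. Of 29 sterol and fatty acid genes 26 fell in set 2 and the response differed in 1. Irf7 had a log2FC of 1.45 in set 2 (adjusted p = 2.10e-04; difference 0.99, SE 0.37, adjusted p = 0.0575). Slfn4 rose in set 2 from 5.48–8.36 to 51.4–105 CPM, by less than in set 1 (difference 1.51, adjusted p = 0.0138). All 12 genes with the largest rise were also called higher in set 2, and of the 12 with the largest fall 8 were also called lower, the exceptions being Gpr34, Gt(ROSA)26Sor, Plxdc2 and Ypel2. These 8 include H3f3a and Lyz2, which the same alleles disrupt in both sets, so that their agreement was fixed by the genotype. H3f3a had a log2FC of -2.35 in set 2 and H3f3b had a log2FC of -0.32 (adjusted p = 0.184).

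Counts of the cell cycle and protease lists were not, nor were those of some other lists. For example, 2 of 31 nucleotide synthesis genes rose and 7 fell in set 2, and the response differed in 15. Among 20 chemokine genes 2 rose and 4 fell there (response different in 5), and among 15 neutrophil markers 5 rose and 1 fell (different in 7). In the H3 chaperone list 1 of 12 rose in set 2, and the response differed in 1. Of 18 G1 and S genes none was called by edgeR in set 2 (1 at an unadjusted p under 0.05), against 15 in set 1, and the response differed between sets in 10. Of 17 G2 and M genes 9 rose in set 2, and the response differed in 6. Cdc6, for example, lay at 37.4–44.2 CPM in WT and 36.9–41.9 CPM in cKO of set 2 (difference of the log2FC values 1.20, SE 0.27, adjusted p = 0.00261). The sets also started from different levels: Pcna, the sliding clamp of replication, lay at 211–289 CPM in WT and 380.0–432 CPM in cKO of set 1, and at 603–654 and 416–492 CPM in set 2 (difference 1.16, adjusted p = 0.00375). Ccl2 was 222–264 CPM in WT and 172–218 CPM in cKO of set 2 (difference 2.54, SE 0.33, adjusted p = 1.18e-05). Plau fell in set 2, from 1869.6–2404 to 739.6–1055 CPM (log2FC -1.22, adjusted p = 2.66e-04), and rose in set 1 (difference 2.89, adjusted p = 1.97e-06). Tnf had a log2FC of -0.01 in set 2 (difference 1.46, adjusted p = 5.10e-06). Of 14 matrix protease genes none rose and 7 fell in set 2, and the response differed in 7. Sex, culture and sequencing cannot be told apart as the source of these differences.

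The 5 genes with the smallest p for the difference between the sets were Pcna-ps2, Slc25a25, P2ry14, Tspan32 and Ccng2. Pcna-ps2, a processed pseudogene of Pcna (chr19:9283380-9284160), had 0.347, 0.594 and 0.296 CPM in WT and 37.98, 45.1 and 38.8 CPM in cKO (log2FC 6.54 ± 0.28, adjusted p = 4.28e-14), whereas in set 2 its log2FC was -0.70 (difference 7.23, SE 0.43, adjusted p = 1.46e-10). It resembles Pcna closely, so its count is uncertain. Slc25a25, a mitochondrial carrier, had 17.5, 18.04 and 17.4 CPM in WT and 39.4, 35.1 and 36.5 CPM in cKO (log2FC 1.07 ± 0.07, adjusted p = 2.65e-10) and fell in set 2 (log2FC -0.37, adjusted p = 4.19e-04; difference adjusted p = 4.35e-09). P2ry14, a receptor for UDP-sugars, lay at 15.3–17.7 CPM in WT and 14.5–17.8 CPM in cKO of set 1 (log2FC 0.01 ± 0.12, adjusted p = 0.949) and rose in set 2 (2.49, adjusted p = 3.23e-12). Tspan32 (log2FC -0.06 ± 0.08, adjusted p = 0.629) was likewise not called in set 1 and rose in set 2 (1.52). Ccng2, a cyclin gene, fell in set 1 from 65.5–70.6 to 26.6–30.3 CPM (log2FC -1.23 ± 0.09, adjusted p = 8.91e-10) and rose in set 2 (0.49, adjusted p = 3.46e-04). Slc25a25, P2ry14 and Tspan32 each overlap another gene.

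**Figure D5:**
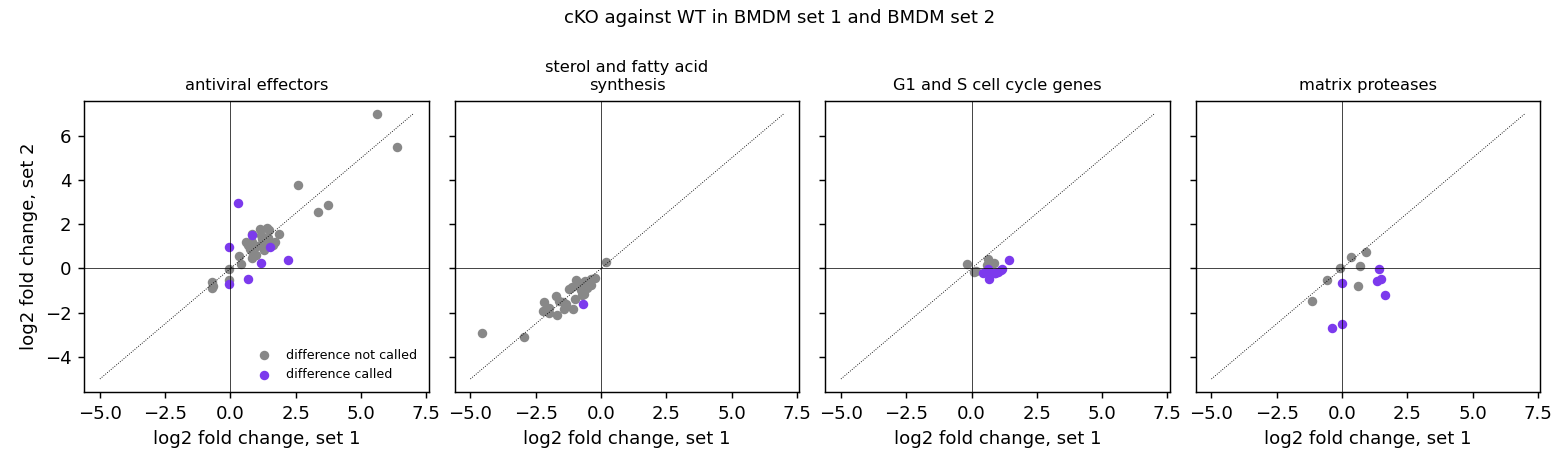
Log2FC of cKO over WT in BMDM set 1 (horizontal) and set 2 (vertical) for the members of 4 lists, with the line of equality dotted. Purple marks genes whose response differed between the sets: 8 of 45 antiviral effectors, 1 of 29 sterol and fatty acid genes, 10 of 18 G1 and S genes and 7 of 14 matrix proteases.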

How the data were processed

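The authors trimmed paired reads with Cutadapt, aligned them to mm10 with STAR and deposited raw counts of reads per gene, without normalization. Versions are not given in the sources used here. The count column without regard to strand was used, since both strand columns held a similar share. Unmapped reads (5.19% to 7.48% of the 6 libraries), multimapping reads (8.84% to 17.5%), reads on no gene (10.9% to 14.4%) and ambiguous reads (5.08% to 6.13%) were left out of library sizes. The authors' own tests used RSEM estimates, which were not used here. Files were joined on gene identifiers without version (54079 genes). WT and cKO of BMDM sets 1 to 3 were fitted together with the double KO groups, in which H3.3 cKO was joined with a knockout of Sting, Mavs or Irf7. These 27 libraries, 9 groups of 3, were fitted with edgeR 4.0.16 in R 4.3.3, after filterByExpr (smallest count 10, smallest total 15) and TMM scaling. The test was the quasi-likelihood F test with Benjamini-Hochberg adjustment. The spread is thus shared over groups (18 residual degrees of freedom). In the data it was unequal: the median SD of log2 CPM was 0.177 in WT of set 1 and 0.159 in WT of set 3. In the other WT and cKO groups it was 0.0599 to 0.0937. The SEs and adjusted p of set 1 may therefore be too small. Deviations from the group mean of same-numbered libraries of sets 1 and 3 correlated at 0.0549 to 0.713. The 18 residual degrees of freedom may therefore be too many. Without set 3 and the Irf7 double KO 6572 genes were called, against 6275. The fit was tested on simulated data for this comparison (17472 genes): 100.0% of 66 genes changed by 2 on the log2 scale, 82.1% of 67 changed by 1 and 38.8% of 67 changed by 0.5 were recovered, with 12 false calls. In the simulation all groups had the same spread at a given expression. Recovery and false calls under the unequal spread of the data were not tested. Same-numbered WT and cKO libraries of set 1 deviated together (correlation of deviations 0.283, 0.349 and 0.327 over 8995 genes). Those of set 3 did so as well (0.417, 0.378 and 0.179). The labels state no pairing.

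The libraries compared, the gene lists and the tests were chosen with earlier results of these data known. Genes named are H3f3a, H3f3b and Lyz2; the 12 genes that rose and the 12 that fell most in log2FC, if called, expressed (log2 CPM averaging 3 or more) and without overlap of the groups; up to 4 called members per list, or its most abundant member; interferon ligands, receptors, Irf7, Mki67, Cdkn1a, Adgre1, Itgam and Csf1r; and the 5 genes with the smallest p in the comparison with set 2. A further 19 list members, Isg15, Ifit1, Mx1, B2m, H2-K1, Cgas, Ifih1, Cxcl10, Insig1, Srebf2, Fasn, Mcm6, Pcna, Rrm2, Ccr2, Itgax, Ngp, S100a8 and Cd36, were added after their values were seen. Some genes that the rule names are not reported here. Positions are from GENCODE vM21 (GRCm38). Alternatives were DESeq2 1.42.0, RLE scaling, other filters, a strand column, only the libraries compared, a replicate block and leaving out libraries.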

Additional observations from a re-analysis of the deposited data

Results flagged for a closer look

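The response to cKO differed between BMDM sets 1 and 2, by the interaction term of the edgeR quasi-likelihood fit, in 3625 of 18083 genes tested. Of the 174 genes named, 55 were among them (adjusted p 1.46e-10 to 0.0469), 40 with a higher and 15 with a lower log2 fold change in set 1 than in set 2, and 7 were called in opposite directions in set 1 and set 2. Values below are the log2 fold change of set 1 minus that of set 2. The sets also differed in sex, which cannot be told apart here from other differences between the experiments.

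Differences below 0 were those of Arg1 (-2.82), Gt(ROSA)26Sor (-2.69), Eda2r (-2.67), P2ry14 (-2.47), Ypel2 (-2.28), Gpr34 (-2.23), Bmf (-2.22), Ccr2 (-1.96), Ccng2 (-1.72), Tspan32 (-1.58), Il15 (-1.29), Nxpe5 (-1.07), Rps14 (-0.86), Lpin1 (-0.82) and Rpl13a (-0.59). Differences of at least 2 were those of Pcna-ps2 (7.23), Cfb (5.35), Itgax (4.10), Ms4a1 (3.15), Plau (2.89), Ccl2 (2.54), Ccl7 (2.49) and Ocstamp (2.22). Differences from 1.3 to under 2 were those of Mmp13 (1.95), Plaur (1.90), Dctd (1.78), Atp6v0d2 (1.78), Ctps (1.69), Slfn4 (1.51), Kitl (1.47), Plk3 (1.46), Tnf (1.46), Slc25a25 (1.43), Adam8 (1.42), Ccl12 (1.41), Chac1 (1.35), Ngp (1.33) and Elane (1.31). The remaining, smaller differences were those of Hells (1.30), S100a8 (1.27), Bcl2 (1.22), Cdc6 (1.20), Ifi206 (1.20), Ccne2 (1.19), Cd36 (1.17), Mcm2 (1.16), Pcna (1.16), Mcm6 (1.08), Ccne1 (1.04), Msr1 (0.99), Uhrf1 (0.96), Cgas (0.75), Hk2 (0.69), Ywhaz (0.63) and B2m (0.59). Cfb, Ms4a1 and Eda2r lie under 2 CPM in set 1, where the size of a difference is poorly known.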

How the results depend on the processing

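Direction and call of H3f3a held under every alternative run, with log2 fold changes of -2.95 to -2.77 when single libraries were left out. The number of genes called ranged from 5200 to 6034 when single libraries were left out (higher 2811 to 3166, lower 2351 to 2889), and 1774 changed by at least 1 on the log2 scale. With only the libraries compared, 4296 genes were called in place of 6275, and 1831 were called lower in place of 3026. That fit had fewer samples and took the spread from set 1 alone. The part of each in the drop was not tested. With replicate number as a block, which pairs same-numbered libraries, 6789 genes were called (3517 higher and 3272 lower) and the comparison with set 2 gave 4257. Of the genes named, the block ended the calls of Ifnlr1 and Blk and changed no other call. The difference from set 2 covered 2977 to 3843 genes when single libraries were left out. The difference from set 3, 0 genes, was 1 with DESeq2, 10 without the filter on low counts and 0 when single libraries were left out, and the cause was not tested.

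Of the 174 genes named, leaving out WT replicate 3 ended the call of 19, more than leaving out any other library (10 to 15). Uncalled genes whose sign turned when single libraries were left out were Ifnar2 (log2 fold change -0.14 to 0.0454), Ifngr2 (-0.13 to 0.0247), Mki67 (-0.29 to 0.10), Adgre1 (-0.16 to 0.26), P2ry14 (-0.0418 to 0.10, and -0.0011 at a mean of at least 1 CPM), Tspan32 (-0.12 to 0.0289) and Ccr2 (-0.23 to 0.34). H3f3b was called lower without the filter on low counts (adjusted p = 0.0428) and without set 3 and the Irf7 double KO (adjusted p = 0.0326), as was Csf1r (adjusted p = 2.13e-04 and 0.0329, and 0.016 without WT replicate 2). Depth limits the faint genes, since a level of up to 0.0962 to 0.140 CPM is allowed where no read was counted.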
